A study of Mus musculus with 53 samples.

Results

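The 9 genes described here encode neurofilament and microtubule proteins of the neuronal cytoskeleton: Nefl, Nefm, Nefh and Ina, Mapt, Map1b and Map2, and Tubb3 and Stmn2. They were chosen by name, and all 9 were among the 12372 genes of the count table. RNA had been sequenced from brainstem, cerebellum, cortex and striatum of male mice aged 74 to 77 weeks (17.5 months). SCA3 mice (MJD84.2) were hemizygous for a transgene with the full human ATXN3 gene, whose CAG repeat is expanded. The transgene is driven by its own human promoter and is expressed throughout the body, and the mice keep their own mouse Atxn3. Controls were wild-type mice on the same C57BL/6 background, and mice of both genotypes had been through behavioural tests. There were 8 wild-type and 6 SCA3 libraries from brainstem, 7 and 6 from cerebellum and from cortex, and 8 and 5 from striatum, so that 53 libraries came from 14 mice. Each library is named by region, genotype and mouse number.

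Neurofilaments are the intermediate filaments of axons. The light (Nefl), medium (Nefm) and heavy (Nefh) subunits and α-internexin (Ina) assemble into a common filament, and large myelinated axons of projection and motor neurons are rich in it. Microtubules run beside these filaments. Tubb3 is the β-tubulin of neurons, tau (Mapt) binds microtubules mainly in axons, Map2 binds them mainly in dendrites, Map1b is a microtubule-binding protein prominent in growing axons, and Stmn2 is a stathmin that binds free tubulin and serves axon growth and repair. Neurofilament light protein released from damaged axons is used as a fluid marker of axonal injury in ataxias and other diseases.

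On mouse genome build GRCm38 (GENCODE annotation), Nefl lies at chr14:68083863-68089095 on the plus strand and Nefm at chr14:68082590-68124846 on the minus strand. The longest annotated Nefm transcript runs across Nefl, whereas the RefSeq models that the reads were counted on are 30449 bases apart. Nefh is at chr11:4938754-4948064 (minus), Ina at chr19:47014698-47025327 (plus), Mapt at chr11:104231390-104332090 (plus) and Map1b at chr13:99421446-99516540 (minus). Map2 is at chr1:66175273-66442583, Tubb3 at chr8:123411424-123422015 and Stmn2 at chr3:8509360-8561606, all on the plus strand. The reads carried no strand. Ina and Nt5c2, a gene on the other strand, overlap at their ends over 494 bases in RefSeq, and 12.8% of the 50-base stretches of the Ina transcript also occur in Nt5c2 transcripts, so that the Ina counts are uncertain to that extent. For Nefh, Nefm, Mapt, Map1b, Tubb3 and Stmn2 no 50-base stretch was shared with the transcripts of another annotated gene. All 1868 exon bases of Tubb3 nevertheless lie inside a long intron of Gm20388, a protein-coding gene on the same strand, so that unspliced reads of the 2 genes cannot be told apart. For Nefl 31.8% were shared, all with the long Nefm transcript, and for Map2 0.178%.

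The heavy subunit differs from the others in its tail, which repeats the codons for lysine, serine and proline, the sites at which kinases phosphorylate the filament. The coding sequence of Nefh held 51 such codon triplets over 1090 codons, that of Nefm 4 over 848, and those of Nefl and Ina none. The stretch with the most of them is printed because Nefh is the member with the largest difference between the genotypes. It spans codons 519 to 578 in exon 4 of 4 (chr11:4940884-4941063, minus strand, GRCm38, GENCODE transcript), and capitals mark the 10 lysine-serine-proline triplets.
Nefh: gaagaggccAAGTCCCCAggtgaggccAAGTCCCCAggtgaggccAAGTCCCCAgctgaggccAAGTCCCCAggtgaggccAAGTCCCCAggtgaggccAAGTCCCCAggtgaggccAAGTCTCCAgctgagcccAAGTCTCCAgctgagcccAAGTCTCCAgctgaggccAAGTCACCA

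Promoter sequences from RefSeq (GRCm38.p6) were matched for 4 of the 9 genes (Ina, Map1b, Map2 and Tubb3). The 250 bases before the RefSeq start of Ina (chr19:47014431-47014680, plus strand), which was lower in SCA3 striatum, and of Map1b (chr13:99516603-99516852, minus strand), which did not pass there, are shown side by side. The Ina stretch lies inside the span of Nt5c2, which runs on the other strand. Capitals mark GGGCGG on either strand, the letters of a GC box, which occurred 2 times in Ina and once in Map1b, and TATAAA, which occurred once in Map1b and not in Ina. The 250 bases taken for Tubb3 held GGGCGG 2 times, and those taken for Map2 5 times. The Map2 stretch ends at position 66175328, past the outermost RefSeq start at 66175202, so that part of it lies inside the annotated gene, and it is not shown. Of all 32851 promoters of this length 32.7% held GGGCGG and 12.4% TATAAA. The other motifs searched on both strands, CCAAT and CACGTG, were in neither printed stretch and in 33.8% and 6.02% of all promoters.
Ina: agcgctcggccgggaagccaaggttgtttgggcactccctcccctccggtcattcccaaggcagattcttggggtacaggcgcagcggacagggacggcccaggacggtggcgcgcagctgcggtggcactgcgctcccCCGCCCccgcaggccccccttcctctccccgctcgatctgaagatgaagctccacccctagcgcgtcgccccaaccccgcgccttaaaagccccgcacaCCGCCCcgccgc
Map1b: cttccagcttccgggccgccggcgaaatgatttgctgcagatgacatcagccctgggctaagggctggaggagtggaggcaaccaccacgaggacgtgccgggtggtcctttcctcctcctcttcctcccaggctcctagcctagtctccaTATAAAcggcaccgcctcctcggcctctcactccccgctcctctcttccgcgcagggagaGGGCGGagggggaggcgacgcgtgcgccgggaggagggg

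The smallest library held 31.7 M counts and the largest 76.7 M (M for mega). By group median, marker genes fitted the labelled regions. The summed level of 12 striatal projection neuron markers was highest in striatum (median 6230 CPM in wild-type and 10600 in SCA3 mice). That of 7 cerebellar neuron markers was highest in cerebellum (8700 and 9290 CPM). The same held for 5 cortical glutamatergic markers in cortex (2160 and 2120 CPM) and, at low levels, 3 brainstem neuron markers in brainstem (173 and 119 CPM). Single libraries overlapped between regions except for the cerebellar markers. Striatal markers went down to 3200 CPM in wild-type striatum and up to 4250 and 5270 CPM in wild-type and SCA3 cortex. Cortical markers went down to 782 and 786 CPM in cortex and up to 1500 and 1650 CPM in striatum. Brainstem markers went down to 41.7 and 25.7 CPM in brainstem and up to 104 CPM in wild-type striatum. CPM is the count of a gene scaled to the normalised size of its library. Certain libraries stood apart. The thalamus marker score was the mean log2 CPM of 8 genes. In the striatal libraries of wild-type mice 7267059 and 7267058 it was 7.43 and 6.72, against 2.9 to 4.71 in the other 11 striatal libraries. Their level of Prkcd, which marks many thalamic neurons, was 861 and 294 CPM, against 15.1 to 180 CPM in those 11. Prkcd by itself did not always follow the score. Wild-type mouse 7267055 held 180 CPM at a score of 3.7, and SCA3 mouse 9082853 held 23.2 CPM at 4.71. In brainstem, wild-type mouse 7267055 and SCA3 mice 9083514 and 9083515 had thalamus marker scores of 5.55, 5.39 and 5.46, against 3.66 to 4.54 in the other 11. Mouse Atxn3 was higher in SCA3 striatum (log2 fold change 0.33, SE 0.06, edgeR FDR = 0.00012) and did not pass in the other regions. The human transgene was not counted separately, so this does not check the genotype labels.

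The first comparison was between regions of wild-type mice. The neurofilament triplet was far higher in brainstem than elsewhere, tau was at nearly the same level in all regions, Map2 was highest in cortex and Stmn2 in cerebellum. Brainstem differed from cerebellum for 8 of the 9 genes at an FDR below 0.05, where 72.6% of all genes did, and for 4 of the 9 by at least 2-fold as well, where 15.2% did. For brainstem against cortex 7 of the 9 passed (65.4% of all genes) and 3 by at least 2-fold (10.3%), and for brainstem against striatum 7 passed (64.2%) and 4 by at least 2-fold (8.41%). The counts for cerebellum against cortex were 6 (69.7%) and 1 (15.9%), and for cerebellum against striatum 5 (69.5%) and 1 (16.3%). Cortex and striatum differed for 2 genes (34.4%) and for none by at least 2-fold (3.12%). The plain counts of genes past the FDR lay near those of all genes, whereas the counts with a 2-fold difference were above them in the 3 comparisons with brainstem.

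Nefl was found between 679 and 1622 CPM in wild-type brainstem (median 1213, n = 8). It was between 335.5 and 518.1 CPM in cortex (median 347.8, n = 7), 230.3 and 556.4 CPM in striatum (median 264, n = 8) and 185.6 and 337.8 CPM in cerebellum (median 239.6, n = 7). No brainstem library overlapped with any other region. Nefl in brainstem was 2.87-fold higher than in cortex (log2 difference 1.52, SE 0.19, edgeR FDR = 2.4e-14) and 4.48-fold higher than in cerebellum (2.16, SE 0.19, FDR = 7.1e-27). Cortex and striatum (FDR = 0.06) and striatum and cerebellum (FDR = 0.3) did not differ beyond their spread, while cortex and cerebellum did (1.56-fold, FDR = 0.0016). Without the striatal libraries of mice 7267058 and 7267059 the difference of cortex from striatum rose from 0.43 to 0.68 on the log2 scale and passed (FDR = 0.0014). It also passed without the brainstem libraries of mice 7267055, 9083514 and 9083515, at the same value of 0.43 (FDR = 0.04).

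Nefm, the medium subunit, ranged from 563.2 to 1655 CPM in wild-type brainstem (median 1250). The medians were 255.8 CPM in cortex, 225 CPM in cerebellum and 196.4 CPM in striatum, and the 3 regions did not differ from each other (edgeR FDR 0.2 to 0.92). Brainstem was 3.75-fold above cortex (log2 difference 1.91, SE 0.26, FDR = 7.4e-12) and 4.76-fold above striatum (2.25, SE 0.25, FDR = 5.2e-17). One striatal library, from mouse 7267059, held 607.3 CPM and thereby reached into the brainstem range. Without it and that of mouse 7267058 the difference of cortex from striatum rose from 0.34 to 0.79 on the log2 scale and passed (FDR = 0.0046).

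Nefh, the heavy subunit, had the widest range. It was at 363.3 to 1083 CPM in wild-type brainstem (median 788.8), 148.4 to 232.7 CPM in cerebellum (median 171), 59.16 to 134.4 CPM in cortex (median 86.86) and 34.82 to 429.3 CPM in striatum (median 74.42). Its order therefore differed from that of Nefl, with cerebellum above cortex (1.89-fold, log2 difference 0.91, SE 0.35, edgeR FDR = 0.014). Brainstem exceeded cortex 7.98-fold (3, SE 0.34, FDR = 5.3e-15), and 99.3% of all genes had a smaller difference between these regions. Striatum did not differ from cortex (FDR = 0.29) or cerebellum (FDR = 0.23). Without the striatal libraries of mice 7267058 and 7267059 the difference of cerebellum from striatum rose from 0.44 to 1.45 on the log2 scale and passed (FDR = 4.2e-07), and that of cortex from striatum turned from -0.47 to 0.53 without passing (FDR = 0.11).

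Ina, α-internexin, had a narrower span, with medians of 242 CPM in brainstem, 153.5 CPM in cerebellum, 122.8 CPM in cortex and 108.4 CPM in striatum of wild-type mice. Brainstem was 1.54-fold above cerebellum (log2 difference 0.62, SE 0.14, edgeR FDR = 1.1e-05) and cerebellum 1.24-fold above striatum (FDR = 0.031), but cerebellum and cortex (FDR = 0.16) and cortex and striatum (FDR = 0.61) were not distinguished. Without the same 2 striatal libraries, cortex was above striatum (log2 difference 0.37 in place of 0.1, FDR = 0.005), and the difference of cerebellum from striatum rose from 0.31 to 0.58 (FDR = 4.9e-07). Per kb of exon, which allows genes to be compared, Nefl and Nefm stood at 342 and 350 CPM per kb in brainstem, Nefh at 186 and Ina at 73.1. In cortex the same genes stood at 119, 93.3, 23.2 and 40.8 CPM per kb, so that Ina was above Nefh there and below it in brainstem.

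Among the microtubule genes, Mapt (tau) did not differ between any 2 regions of wild-type mice (edgeR FDR 0.24 to 0.98). Its medians were 612.4 CPM in brainstem, 581.2 CPM in cerebellum, 639.4 CPM in cortex and 595.7 CPM in striatum, and the largest log2 difference between regions was 0.1 (SE 0.07). Map2, in contrast, was at 1172 to 1933 CPM in cortex (median 1556), 1184 to 1373 CPM in brainstem (median 1307), 1021 to 1505 CPM in striatum (median 1295) and 533 to 827.8 CPM in cerebellum (median 689.7). Cerebellum did not overlap with the other regions and was 2.26-fold below cortex (log2 difference -1.18, SE 0.1, FDR = 1.9e-31). Cortex was above brainstem (1.18-fold, FDR = 0.017) and striatum (1.2-fold, FDR = 0.022), and those 2 regions did not differ (FDR = 0.9). The difference of cortex from striatum did not pass without the 2 striatal libraries (0.2 in place of 0.26, FDR = 0.11).

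Map1b had the same order of regions as Nefl, with a median of 1822 CPM in wild-type brainstem, 1069 CPM in cortex, 1009 CPM in striatum and 688 CPM in cerebellum. Brainstem was 1.7-fold above cortex (log2 difference 0.77, SE 0.12, edgeR FDR = 8.2e-10) and 2.68-fold above cerebellum (1.42, SE 0.12, FDR = 3.4e-30). Cortex and striatum did not differ (FDR = 0.68). Tubb3 took the same order at smaller folds: the medians were 392.7 CPM in brainstem, 304.4 CPM in cortex, 266.6 CPM in striatum and 211.5 CPM in cerebellum, with brainstem 1.33-fold above cortex (FDR = 2.6e-05) and cortex and striatum not distinguished (FDR = 0.18). Without the 2 striatal libraries Tubb3 was higher in cortex than in striatum (log2 difference 0.3 in place of 0.16, FDR = 0.0039), and cerebellum and striatum no longer differed (-0.18 in place of -0.32, FDR = 0.063).

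Stmn2 had an order of its own. It was highest in wild-type cerebellum (525.4 to 627.8 CPM, median 559.5), followed by brainstem (371.8 to 518.6 CPM, median 418), cortex (298.6 to 433.4 CPM, median 321.1) and striatum (99.56 to 280.1 CPM, median 239.1). Cerebellum lay above all libraries of the other regions and was 1.32-fold above brainstem (log2 difference 0.4 in favour of cerebellum, edgeR FDR = 0.016) and 2.66-fold above striatum (1.41, SE 0.16, FDR = 1.3e-18). Brainstem and cortex did not differ (FDR = 0.068), and striatum was 1.63-fold below cortex (0.71, SE 0.16, FDR = 6e-05). In these bulk samples, fewer cells of a type and less RNA per cell cannot be told apart.

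**Figure D1:**
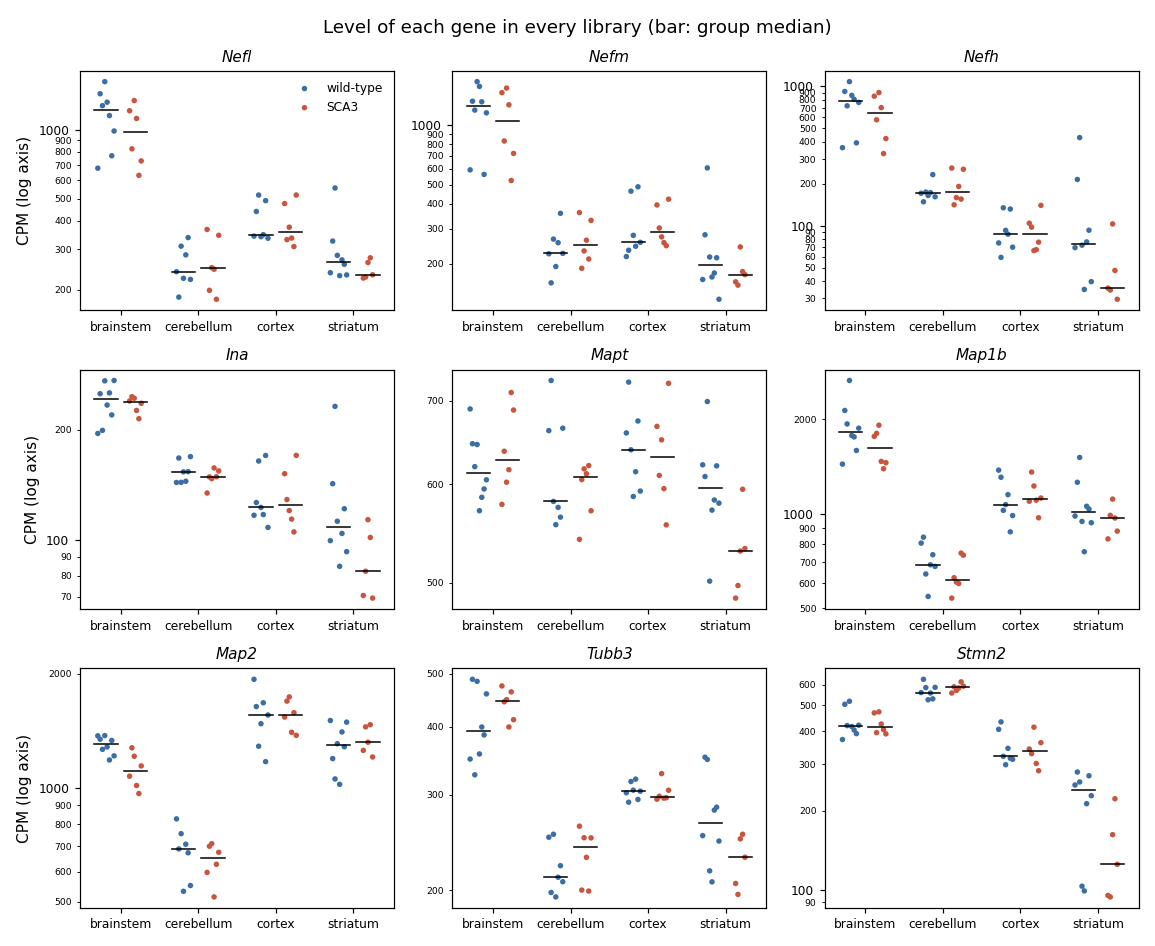
Level of the 9 genes in every library, in CPM on a log axis, by region for wild-type (blue) and SCA3 (red) mice; black bars are group medians. Nefl, Nefm and Nefh are highest in brainstem and Mapt is level across the regions, and the highest striatal Nefh points, 429.3 and 214.7 CPM, are both wild-type.

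The second comparison asked whether SCA3 mice differed from wild-type mice within each region. None of the 9 genes passed in brainstem, cerebellum or cortex, and 3 passed in striatum, all lower in SCA3 mice: Nefh, Ina and Stmn2. Among all genes 1.92% passed in brainstem, 0.0647% in cerebellum, 0.154% in cortex and 7.54% in striatum, where 5.47% were lower in SCA3. At an unadjusted p below 0.05 the edgeR counts among the 9 were 1 in brainstem, 0 in cerebellum, 0 in cortex and 5 in striatum, where 13.3%, 1.66%, 4.07% and 23.2% of all genes were below it. With the quasi-likelihood test, DESeq2 and limma-voom, too, no member passed in brainstem, cerebellum or cortex. Of all genes 1.62%, 2.49% and 1.98% passed in brainstem in that order. The shares were 0.0566%, 0.0808% and 0.0404% in cerebellum and 0.129%, 0.162% and 0.0889% in cortex. The median log2 fold change of the 9 genes was -0.15 in brainstem, 0.04 in cerebellum, -0.01 in cortex and -0.29 in striatum, beside a median of 0 over all genes in each region. The ranges of SCA3 and wild-type libraries overlapped for each of the 9 genes in every region. How often they overlapped over all genes was not counted, so this does not set the 9 genes apart.

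Markers of several cell types moved with genotype in striatum as well. Of 12 mature oligodendrocyte markers 4 were lower in SCA3 and all 12 had a negative value (median log2 fold change -0.37, summed level 6520 to 9980 CPM in SCA3 and 7010 to 20700 CPM in wild-type libraries). Of 10 astrocyte markers 5 were lower and all 10 had a negative value (-0.31, 4840 to 5390 and 4660 to 6450 CPM). All 12 striatal projection neuron markers had a positive value, with none called (0.45, 7620 to 11400 and 3200 to 12400 CPM). Of 11 general neuron markers 2 were lower, Syp, a synaptic vesicle protein (log2 fold change -0.43, SE 0.12, edgeR FDR = 0.0096), and Elavl4, a neuronal RNA-binding protein (-0.75, SE 0.23, FDR = 0.024), with 5 positive and 6 negative values in all (median -0.01, 5810 to 7860 and 5930 to 7700 CPM). The part of these cell types in the differences of Nefh, Ina and Stmn2 was not tested.

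Nefh was found at 29.6, 34.48, 35.62, 47.68 and 102.9 CPM in the 5 SCA3 striatal libraries, and at 34.82 to 429.3 CPM (median 74.42) in the 8 wild-type ones. The SCA3 library at 102.9 CPM came from mouse 9082853, and the wild-type libraries above it, at 214.7 and 429.3 CPM, from mice 7267058 and 7267059. Nefh was lower in SCA3 (log2 fold change -1.36, SE 0.37, edgeR FDR = 0.014), a level of 0.389 times wild-type. All 3 libraries named here also had the highest thalamus marker scores of their genotype in striatum, 4.71, 6.72 and 7.43. Without both wild-type libraries the log2 fold change of Nefh was -0.36 (FDR = 0.61). It was -0.33 (FDR = 0.66) once the thalamus marker score was included in a fit of striatum alone. With limma-voom it was -1.02 (FDR = 0.069).

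Ina was at 69.52, 70.66, 82.29, 101.7 and 113.7 CPM in SCA3 striatum and at 84.86 to 231.5 CPM (median 108.4) in wild-type striatum. A total of 4 of the 5 SCA3 libraries lay below the wild-type median. The log2 fold change was -0.5 (SE 0.15, edgeR FDR = 0.022). It was -0.23 (FDR = 0.36) without wild-type mice 7267058 and 7267059, which had the highest Ina levels of all striatal libraries (142.5 and 231.5 CPM), and -0.18 (FDR = 0.66) with the thalamus marker score in a fit of striatum alone.

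Stmn2 was at 94.46, 95.74, 125.4, 162.4 and 222 CPM in SCA3 striatum. The wild-type striatal libraries fell into 2 at 99.56 and 103.7 CPM (mice 9083371 and 9082857) and 6 between 212.7 and 280.1 CPM. No SCA3 library was above the wild-type median of 239.1 CPM, and the log2 fold change was -0.6 (SE 0.17, edgeR FDR = 0.015). Stmn2 moved with the neuron marker score (mean log2 CPM of 11 general neuron genes, none of them a member): in a fit of striatum alone it rose by 3.04 on the log2 scale per unit of score (SE 0.62, FDR = 0.00059), the only 1 of the 9 genes to pass in striatum, against 3.1% of all genes. The score itself was 8.67 ± 0.14 in wild-type and 8.59 ± 0.19 in SCA3 striatum (SD, n = 8 and n = 5). With it in the fit the log2 fold change of Stmn2 was -0.37 (FDR = 0.58), and with the thalamus marker score instead -0.36 (FDR = 0.71). Without mice 7267058 and 7267059 it was -0.47 (FDR = 0.15).

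The calls in striatum changed with the libraries that entered the fit. Fitted on the striatal libraries alone, the log2 fold changes of Nefh, Ina and Stmn2 were again -1.36, -0.5 and -0.6, but the FDR values were 0.28, 0.31 and 0.34, and 0.711% of all genes passed. Among the mice of the largest number series, those whose numbers share their leading digits, the changes were -0.66, -0.24 and -0.22, with an FDR of 1 for each, and 0.162% of all genes passed. Without the 2 wild-type striatal libraries 2.34% did. No member passed among libraries with a RIN (RNA integrity number) of at least 7, where 1.12% of all genes did. The changes of Nefh, Ina and Stmn2 were -1.21, -0.44 and -0.37 there (FDR = 0.13, 0.17 and 0.33). With 1 mouse left out at a time, the number of members called ranged from 0 to 5. None passed without wild-type mouse 7267059 or without SCA3 mouse 7267054, 7267056 or 9083515, when 3.86%, 3.23%, 2.43% and 2.4% of all genes passed. The count was 5 without wild-type mouse 9082857, when Mapt and Tubb3 also passed, as did 14.8% of all genes.

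The remaining 6 genes did not pass in striatum. Tubb3 was at 196.7 to 253.7 CPM in SCA3 and 207.4 to 351.4 CPM in wild-type mice (log2 fold change -0.27, SE 0.1, edgeR FDR = 0.08), and Mapt at 486 to 594.4 CPM and 501.5 to 699.1 CPM (-0.18, SE 0.07, FDR = 0.11). No SCA3 library was above the wild-type median for either gene. The log2 fold changes of Nefm, Nefl and Map1b were -0.42 (SE 0.28), -0.29 (SE 0.21) and -0.15 (SE 0.13). Map2 was the only 1 of the 9 with a positive value, 0.06 (SE 0.1, FDR = 0.76).

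**Figure D2:**
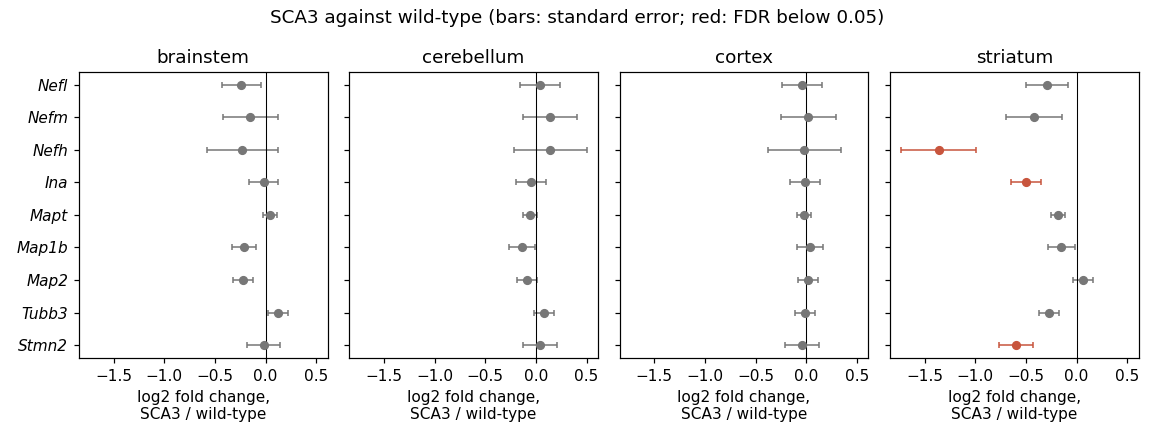
Log2 fold change of SCA3 over wild-type for each gene in the 4 regions, with bars of 1 standard error; red marks an FDR below 0.05. The 3 red points are Nefh (-1.36), Stmn2 (-0.6) and Ina (-0.5) in striatum, and the cortical points lie within 0.04 of 0.

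In brainstem the largest differences were small beside the spread of the neurofilaments. Nefl was at 631.7 to 1341 CPM in SCA3 (median 972.6) and 679 to 1622 CPM in wild-type mice (log2 fold change -0.24, SE 0.19, edgeR FDR = 0.64), and Nefh at 329.4 to 904.6 CPM and 363.3 to 1083 CPM (-0.23, SE 0.35, FDR = 0.85). Map2 was at 965.5 to 1275 CPM in SCA3 (median 1107) and 1184 to 1373 CPM in wild-type brainstem, and no SCA3 library was above the wild-type median of 1307 CPM (-0.22, SE 0.1, unadjusted p = 0.027, edgeR FDR = 0.29). Map2 passed when brainstem was fitted alone with the thalamus marker score as a covariate (-0.22, FDR = 0.039), when 5.26% of all genes passed, and not without the score (-0.22, FDR = 0.055), when 3.17% did. For Tubb3, by contrast, all 6 SCA3 libraries (399.4 to 475.1 CPM) were above the wild-type median of 392.7 CPM, yet the difference did not pass (log2 fold change 0.12, SE 0.1, FDR = 0.65). Without the 3 brainstem libraries of high thalamus marker score (mice 7267055, 9083514 and 9083515) no member passed either, when 0.736% of all genes did. The log2 fold changes of Nefl, Nefh and Map2 were then -0.12, -0.07 and -0.17 (edgeR FDR 0.98 to 1).

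Glial markers moved with genotype in brainstem. Of 10 astrocyte markers 5 were lower in SCA3 and all 10 had a negative value (median log2 fold change -0.37, summed level 3890 to 4520 CPM in SCA3 and 4470 to 7330 CPM in wild-type libraries). Of 12 mature oligodendrocyte markers 2 were lower and all 12 had a negative value (-0.37, 10200 to 17200 and 11100 to 23200 CPM), and 1 of 10 microglia markers was lower, with all 10 negative (-0.15, 324 to 416 and 286 to 554 CPM). Of 7 markers of oligodendrocyte precursors 2 were higher, with 5 positive and 2 negative values in all (0.22, 509 to 608 and 360 to 515 CPM). Their part in the brainstem values of the members and of the ratios between them was not tested.

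In cerebellum the log2 fold changes ran from -0.14 (Map1b, SE 0.13) to 0.14 (Nefm, SE 0.27, and Nefh, SE 0.36), and in cortex from -0.04 to 0.04. The 95% interval of Nefl was -0.35 to 0.43 in cerebellum and -0.43 to 0.35 in cortex. For Mapt, the gene with the smallest error, it was -0.2 to 0.08 and -0.16 to 0.12. The precision for Nefh was lower, and a log2 change between -0.72 and 0.69 in cortex was within its interval.

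Tests that join the regions called none of the 9 genes. The combined test of the genotype effect over the 4 regions passed for 4.73% of all genes. Among the members the smallest values were those of Nefh (edgeR FDR = 0.14), Stmn2 (FDR = 0.16) and Ina (FDR = 0.22), the 3 with an unadjusted p below 0.05, as 16.6% of all genes had. The test of whether the genotype effect differed between regions passed for 0.218% of all genes. There Nefh (edgeR FDR = 0.4), Stmn2 (FDR = 0.43) and Tubb3 (FDR = 0.48) had an unadjusted p below 0.05, as did 9.09% of all genes. A difference confined to striatum was thus not shown by edgeR for any member.

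The thalamus marker score moved with the neurofilament genes in opposite directions in striatum and brainstem. Per unit of score, in a fit of the striatal libraries alone with genotype in the model, Nefh rose by 0.68 on the log2 scale (SE 0.08, edgeR FDR = 3.4e-18), Nefm by 0.35 (SE 0.06, FDR = 5.4e-09), Ina by 0.26 (SE 0.04, FDR = 2.7e-08) and Nefl by 0.21 (SE 0.04, FDR = 5.4e-06). Map1b rose by 0.16 (SE 0.03, FDR = 1.4e-07) and Tubb3 by 0.15 (SE 0.03, FDR = 2.2e-05). These 6 of the 9 genes passed, against 35.7% of all genes. Map2 (-0.06, SE 0.04, FDR = 0.28), Mapt (0.06, SE 0.03, FDR = 0.097) and Stmn2 (0.2, SE 0.1, FDR = 0.1) did not.

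In brainstem the slopes on the same score were -0.77 for Nefh (SE 0.09, edgeR FDR = 7.4e-14), -0.77 for Nefm (SE 0.11, FDR = 1.2e-08) and -0.56 for Nefl (SE 0.09, FDR = 3.8e-08). Map1b (-0.26), Stmn2 (-0.16) and Ina (-0.14) passed in the same direction, and Mapt rose by 0.11 (SE 0.04, FDR = 0.027), so that 7 of the 9 passed, against 23.1% of all genes. The 3 brainstem libraries with a score above 5 were those of mice 7267055, 9083515 and 9083514, with 363.3, 422.5 and 329.4 CPM of Nefh. Wild-type mouse 9083373, next in score at 4.54, held 393.5 CPM, and the other 10 held 576 to 1083 CPM. The summed level of the 8 thalamus markers was 92.6 to 2050 CPM in wild-type and 88.7 to 267 CPM in SCA3 striatum, and 378 to 734 and 361 to 772 CPM in brainstem. In striatum 5 of these 8 genes were lower in SCA3 mice (median log2 fold change -1.66 over the 8).

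The score spanned less in the other regions, 3.71 to 4.49 in cerebellum and 3.22 to 4.14 in cortex. In cerebellum Nefl rose with it by 0.72 on the log2 scale per unit (SE 0.28, edgeR FDR = 0.049), Map2 by 0.5 (SE 0.15, FDR = 0.0072) and Tubb3 by 0.43 (SE 0.12, FDR = 0.0031), so that 3 of the 9 passed, against 22.7% of all genes. In cortex none of the 9 passed (edgeR FDR 0.068 to 0.91), against 20.1% of all genes. On the neuron marker score 3 of the 9 passed in cortex, against 29.3% of all genes: Nefl rose by 1.43 per unit (SE 0.3, edgeR FDR = 2e-05), Ina by 0.96 (SE 0.36, FDR = 0.029) and Mapt by 0.54 (SE 0.21, FDR = 0.032). None passed on that score in brainstem (edgeR FDR 0.28 to 0.91) or cerebellum (FDR = 1 for each), where 4.24% and 0.0162% of all genes did.

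**Figure D3:**
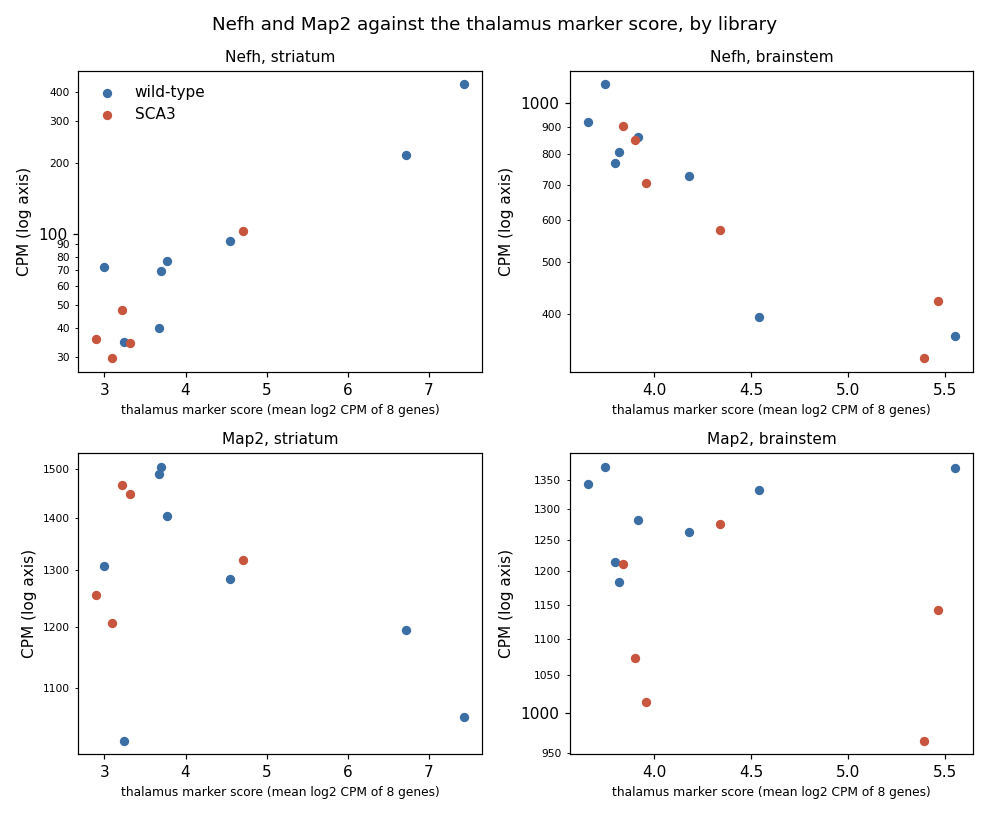
Nefh (top) and Map2 (bottom) in CPM on a log axis against the thalamus marker score of the same library, for striatum (left) and brainstem (right); each point is 1 library of a wild-type (blue) or SCA3 (red) mouse. Nefh rises with the score in striatum (0.68 log2 per unit) and falls with it in brainstem (-0.77), while Map2 shows no such slope in either region (-0.06 and 0).

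Ratios between members were compared within each library, since a ratio does not depend on the library total. Of 20 comparisons, 5 ratios in 4 regions, a single ratio passed after adjustment. The log2 ratio of Map2 to Mapt counts in brainstem was 0.44, 0.72, 0.73, 0.89, 1.00 and 1.01 in the 6 SCA3 mice and 0.99 to 1.17 in the 8 wild-type mice. The means were 0.8 ± 0.22 (SD, n = 6) and 1.06 ± 0.07 (SD, n = 8), a difference of -0.27 (exact two-sided permutation p = 0.002, 0.04 after Benjamini-Hochberg adjustment). The groups overlapped narrowly. The 3 brainstem libraries with a high thalamus marker score were low for their genotype: SCA3 mouse 9083514 had the lowest ratio (0.44), SCA3 mouse 9083515 the third lowest (0.73), and wild-type mouse 7267055 the lowest of the wild-type mice (0.99). Without these 3 the difference was -0.17 (exact permutation p = 0.0061, adjusted 0.12), and the highest SCA3 and the lowest wild-type ratio were both 1.01. In the other regions the difference was -0.03 in cerebellum, 0.05 in cortex and 0.25 in striatum (exact permutation p = 0.83, 0.73 and 0.094). With medians in place of means the difference was -0.23 (exact permutation test, adjusted p = 0.067), and for libraries with a RIN of at least 7 it was again -0.27 (adjusted p = 0.07). Among mice of the largest number series the difference was -0.46 and the groups were apart, at 0.44 to 0.73 in 3 SCA3 and 1.01 to 1.17 in 4 wild-type mice. These SCA3 mice (9083513 to 9083515) were 74 weeks old and the wild-type mice (9083371 to 9083375) 75 weeks. Age and genotype cannot be told apart there, and SCA3 mice 9083514 and 9083515 are those of high thalamus marker score. The exact permutation p of 0.029 was the smallest that 3 against 4 allow, and over 20 comparisons a single ratio could not pass there (adjusted 0.57). Nor could it with the 3 libraries left out, where the smallest p is 0.003. With 1 mouse left out at a time, the ratio passed without wild-type mouse 7267055 or 9083375 or SCA3 mouse 7267056 or 9082853, and did not without any of the other 10, when the difference was -0.28 to -0.19 and the adjusted p 0.058 to 0.093 (exact permutation test). The smallest of these differences, -0.19, was that without SCA3 mouse 9083514. In wild-type brainstem RIN was 7.24 ± 0.424 (SD, n = 8) and in SCA3 brainstem 7.78 ± 0.264 (SD, n = 6).

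**Figure D4:**
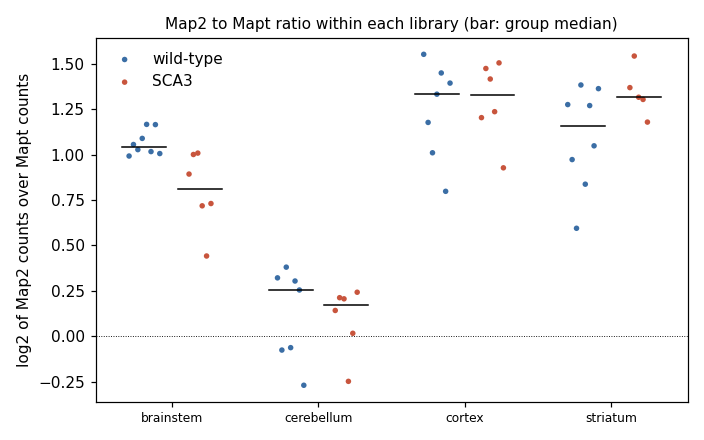
Log2 ratio of Map2 to Mapt counts in each library, by region for wild-type (blue) and SCA3 (red) mice, with black bars at the group medians. In brainstem the wild-type libraries lie between 0.99 and 1.17 and the SCA3 libraries between 0.44 and 1.01, while the genotypes overlap broadly in the other regions.

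Among the neurofilament ratios, Nefh to Nefl was lower in SCA3 striatum (mean log2 ratio -2.45 ± 0.63, n = 5) than in wild-type striatum (-1.66 ± 0.83, n = 8), but the difference of -0.79 did not pass (exact permutation p = 0.1, adjusted 0.42). Ina to Nefl in striatum differed by -0.22 (exact permutation p = 0.028, adjusted 0.28). Nefm to Nefl differed by 0.12 or less in every region. The wild-type mean of the Nefh to Nefl ratio was -0.54 ± 0.17 in cerebellum (range -0.83 to -0.32), -0.67 ± 0.21 in brainstem (-0.97 to -0.36), -1.66 ± 0.83 in striatum (-2.73 to -0.37) and -2.15 ± 0.36 in cortex (-2.89 to -1.88). Cortex did not overlap with cerebellum or brainstem, whereas striatum overlapped with all 3, and the ratio was not tested between regions.

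The other genes of the axonal cytoskeleton were read from 8 lists with 93 genes, of which 90 were in the table. None of the 90 passed in brainstem, cerebellum or cortex. In striatum 1 was higher and 6 were lower in SCA3 mice, 7.78% of the 90 and thus near the 7.54% of all genes. Mark1, a kinase that phosphorylates tau and releases it from microtubules, was higher (log2 fold change 0.3, SE 0.09, edgeR FDR = 0.018). The α-tubulin Tuba1b (-0.59, SE 0.14, FDR = 0.002), the stathmin Stmn3 (-0.47, SE 0.11, FDR = 0.0021) and the β-tubulin Tubb4b (-0.46, SE 0.12, FDR = 0.0072) were lower. The ranges of the groups overlapped for each of these 4 genes, and the share over all genes was not counted. By list, 3 of 12 other tubulins, 1 of 6 other intermediate filament genes, 1 of 8 other stathmins and collapsin response proteins and 1 of 14 genes of the spectrin and ankyrin membrane skeleton were lower. None of the 23 microtubule-associated and end-binding proteins, 12 tubulin-modifying and severing enzymes or 4 axon growth proteins passed.

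Some genes varied with the members from library to library within the groups. As a description over all 53 libraries, which share mice and sequencing depth, the genes with the most similar deviations from the 8 group means were found for each member. For Nefh they were Vamp1, a synaptic vesicle protein (Pearson r 0.946), and Epb41l3, a protein of the membrane skeleton (0.897), and for Nefm again Epb41l3 (0.876) and Fam98a (0.87). Nefl went with Ckmt1, the mitochondrial creatine kinase (0.863), and Kcns3 (0.844). For Ina the genes were Ttll5, a tubulin-modifying enzyme (0.884), and Hapln4 (0.869), for Map1b Prune2 (0.849) and Rufy3 (0.811), and for Mapt Ipo9 (0.808) and Tom1l2 (0.801). Tubb3 was most similar to Acot7 (0.848) and to another β-tubulin gene, Tubb4b (0.804), and Stmn2 to Lnx1 (0.878) and Ppm1e (0.876). Map2 had the lowest values, with Stox2 at 0.753 and Pds5b at 0.75.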

How the data were processed

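RNA sequencing counts of 53 libraries were examined. The authors deposited whole-number read counts for each gene, not normalised. According to their methods, poly-A libraries without strand information were sequenced as paired reads, trimmed (cutadapt 1.10), aligned to GRCm38 with STAR 2.3.0e keeping uniquely aligned reads, and counted per RefSeq gene with HTSeq 0.6.1. Reads shared by near-identical or overlapping genes were therefore lost or cannot be assigned. The authors kept genes averaging above 4 CPM, and the lowest mean in the table was 4.07. Region, genotype, mouse, age and RIN came from the labels.

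As in the study, all 53 libraries entered 1 negative binomial fit with 8 groups (edgeR 4.0.16, R 4.3.3, TMM, likelihood ratio tests). FDR is the Benjamini-Hochberg value over all 12372 genes, and an FDR below 0.05 was called. SE came from the fit. For ratios an exact permutation test (two-sided) of the difference in means was used. The procedure was tested on simulated data of SCA3 against wild-type striatum with 12372 genes. Of 100 genes changed 1.5-fold 85% were called, of 100 changed 2.5-fold 99%, and 15 unchanged genes (7.54% of the calls) were called falsely. Apart from the changed genes, every simulated library had the same mean per gene, with the dispersion of the fit. There were no regional differences and no libraries that stood apart, so these rates do not carry over to the calls in the real striatum. Exon lengths, positions and transcripts came from GENCODE M21, and promoters from RefSeq.

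Alternatives were the quasi-likelihood test, DESeq2 1.42.0, limma 3.58.1 (voom) without a block and with mouse as random block, RLE factors, at least 10 counts in every library, RIN, age or mouse number series as covariate, a RIN of at least 7, single regions with and without marker scores, and each mouse left out. The fits without 2 wild-type striatal or without 3 brainstem libraries and the slopes on marker scores were chosen after seeing the data. The members, pathway lists, marker lists and rules were chosen with earlier results of these data known. Named genes were the 9 members, up to 3 higher and 3 lower called pathway genes per region, 2 genes most similar to each member, and markers. The same mouse gave several libraries, which pairs them: over the 6 pairs of regions the mean correlation between libraries of 1 mouse, after subtracting group means, was 0.0904 to 0.186. A prior count of 2 was used for log2 CPM.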

Additional observations from a re-analysis of the deposited data

Results flagged for a closer look

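In 7 of the 72 sets formed by a gene and a group, 1 library lay farther from the rest than Dixon's test allows at the 95% level, and chance alone flags about 1 set in 20. A total of 4 of the 7 were the wild-type striatal library of mouse 7267059, which had the highest level of Nefl (556.4 CPM, the next being 326.1), Nefm (607.3 CPM, the next 279.2), Nefh (429.3 CPM, the next 214.7) and Ina (231.5 CPM, the next 142.5). The same library had the highest thalamus marker score of all striatal libraries, 7.43. In SCA3 striatum the Nefh level of mouse 9082853 stood apart at 102.9 CPM, with the next at 47.68 CPM. In wild-type cerebellum that of mouse 9083373 did at 232.7 CPM, with the next at 174.3 CPM. In SCA3 cortex the Tubb3 level of mouse 9082853 was 327.9 CPM and the next 305.6 CPM.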

How the results depend on the processing

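Of the counts of members called, those for SCA3 striatum changed most. From 3, the count went to 0 with libraries of RIN at least 7, with striatal libraries alone (also with RIN, thalamus marker score or neuron marker score as covariate, or with the largest number series of mice alone) and without 2 wild-type striatal libraries, and it ranged from 0 to 5 with single mice left out. In the fits with a count of 0 other than those with a mouse left out, 0.162% to 2.34% of all genes passed, against 7.54%. In brainstem it went from 0 to 1 (Map2) when that region was fitted alone with the thalamus marker score as covariate, where 5.26% of all genes passed. Fitted alone without the score, Map2 did not pass and 3.17% of all genes did, against 1.92% in the fit of all regions. The combined test gave 0 to 1 with single mice left out (Nefh without SCA3 mouse 9082853, and Stmn2 without wild-type mouse 9082857 or 9083371 or SCA3 mouse 9083514), when 6.64%, 8.48%, 6.94% and 3.87% of all genes passed, against 4.73%. Wild-type cortex against striatum gave 1 to 5 with single mice left out, with 5 genes passing without mouse 7267059 (35% of all genes) and 1 without mouse 7267058 or 9083371 (25.7% and 32.6%), and 5 without 2 wild-type striatal libraries (33.6%), against 34.4% with all libraries. Cerebellum against striatum gave 4 to 6, with 66.3% to 69.3% of all genes passing, and brainstem against cortex 6 to 7, with 61.1% to 65.6%. The ratio count of 1 went to 0 with medians, with RIN of at least 7, with the largest number series and without 3 brainstem libraries, and ranged from 0 to 2 with single mice left out. In that series and without those 3 libraries a single brainstem ratio could not pass at any difference, so that a count of 0 there does not show dependence. It was 0 without any of 10 mice in turn, and 2 without SCA3 mouse 9082853. The cause was not tested.

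With the mouse as a replicate block in limma-voom (paired libraries, correlation 0.14) the count in striatum was 2, since the FDR of Nefh was 0.073, compared with 0.069 without the block. Of all genes 5.76% passed in striatum with the block and 5.63% without it. As a fixed replicate block the mouse gave 0 members with region dependence, where 0.291% of all genes passed. That block changed no count between wild-type regions by more than 1.5 times. No called value turned its direction under any alternative run. Of 612 values for SCA3 against wild-type under alternatives other than leaving out a mouse, 588 kept direction or stayed uncalled, 23 lost the call and 1 gained it.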
